A study of Mus musculus with 33 samples.

Results

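Imprinted genes are expressed mainly from the copy inherited from 1 parent, and many of them set the growth of the embryo. The 10 followed here were H19, Igf2, Dlk1, Meg3, Peg3, Cdkn1c, Igf2r, Grb10, Mest and Plagl1. They were taken by gene symbol as a list of imprinted growth genes, 10 of the 47729 genes in the deposited count tables. The list was chosen with earlier results of these data known. All 10 had enough reads to be tested. In general, genes expressed from the paternal copy (Igf2, Dlk1, Peg3, Mest, Plagl1) promote growth, and genes expressed from the maternal copy (Cdkn1c, Igf2r, Grb10, and the noncoding H19 and Meg3) restrain it. The parental choice is held by DNA methylation at imprinting control regions, and H19 and Igf2 share 1 such region and a set of enhancers. The mice were inbred C57BL/6J, so these counts do not say which parental copy a read came from.

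The cells were retinal progenitor cells, which divide and give rise to retinal neurons and Muller glia, from C57BL/6J mice at embryonic day 14. At day 0 they were untreated, primed towards cones with COCO (a secreted protein that blocks BMP, TGF-beta and Wnt signals), or primed towards rods with taurine and retinoic acid. Cone and rod cultures were then sampled under induction with the same agents at days 5, 12, 21 and 35, which gives 11 groups of 3 libraries, 33 in all. The labels do not say whether the 3 libraries of a group are separate cultures, so p-values measure the spread between these libraries, which may be technical.

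Gene counts per library ranged from 7511837 to 19166442, with a median of 12985662. Levels are CPM values from edgeR, which scales each count to the size of its library, in the order of replicates 1, 2 and 3. A count of 0 allows up to 3 counts, which is 0.174 to 0.407 CPM across libraries and covers counting error only. Differences are log2 fold changes with standard errors (SE) from edgeR's quasi-likelihood test, and called genes are those with an adjusted p (Benjamini-Hochberg, over the 18150 genes tested) below 0.05. All 13 listed progenitor genes, among them Pax6 and Rax, were detected at day 0, with a summed level of 1244 to 2102 CPM in the 9 day 0 libraries. The same libraries held photoreceptor genes (summed level 575 to 1227 CPM) and genes of other retinal neurons (880 to 1813 CPM). At day 35 the progenitor sum was still 1406 to 1554 CPM in cone and 1423 to 1823 CPM in rod culture, so it does not set day 0 cells apart. In bulk RNA, fewer cells of a type and less RNA per cell cannot be told apart.

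Priming with COCO moved none of the 10 genes: edgeR called 0 against untreated cells, 0 had an unadjusted p under 0.05, and 0 were called by DESeq2 or by voom with quality weights. Over all genes tested, 0% were called in that comparison. Rod priming moved 2 of the 10, Cdkn1c upwards and Meg3 downwards, where 10.3% of all genes tested were called. Between cone and rod cultures, 2 of 10 were called in primed cells (7.27% of all genes tested) and 1 at day 5 (9.28%). There were 4 calls at day 12 (10.1% of all genes), 3 at day 21 (9%) and another 3 at day 35 (12.3%). Time in culture moved more of them. From primed cells to day 35, 6 of 10 were called in cone culture, against 57.7% of all genes, and 7 of 10 in rod culture, against 55.6%. Any change over the 5 days was called by edgeR for 8 of 10 in cone culture (all but Mest and Plagl1), where 70% of all genes were called, and for all 10 in rod culture, where 63.4% were. The 3 libraries of a pair of groups can also fail to overlap without a call. Cone and rod libraries did not overlap for 4 of the 10 genes in primed cells (29.5% of all genes) and for 6 at day 5 (32.8%). This number was 4 at day 12 (22.3%), 5 at day 21 (24.7%) and again 4 at day 35 (27.9%). For priming against untreated cells this held for 0 in cone (5.17%) and 4 in rod cells (33.6%), and for day 35 against primed cells for 7 in cone (64.8%) and 8 in rod culture (62.5%). From primed cells to day 35 the shares called were near those of all genes. For any change over days in rod culture, 10 of 10 were called where 63.4% of all genes were, and this count was 5 to 10 under other settings of the analysis. The list was chosen with earlier results of these data known, so this excess is only a description. The test of the list as a whole was not run. Because the primed and day 35 libraries enter several of these comparisons, their results are not independent of each other.

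**Figure D1:**
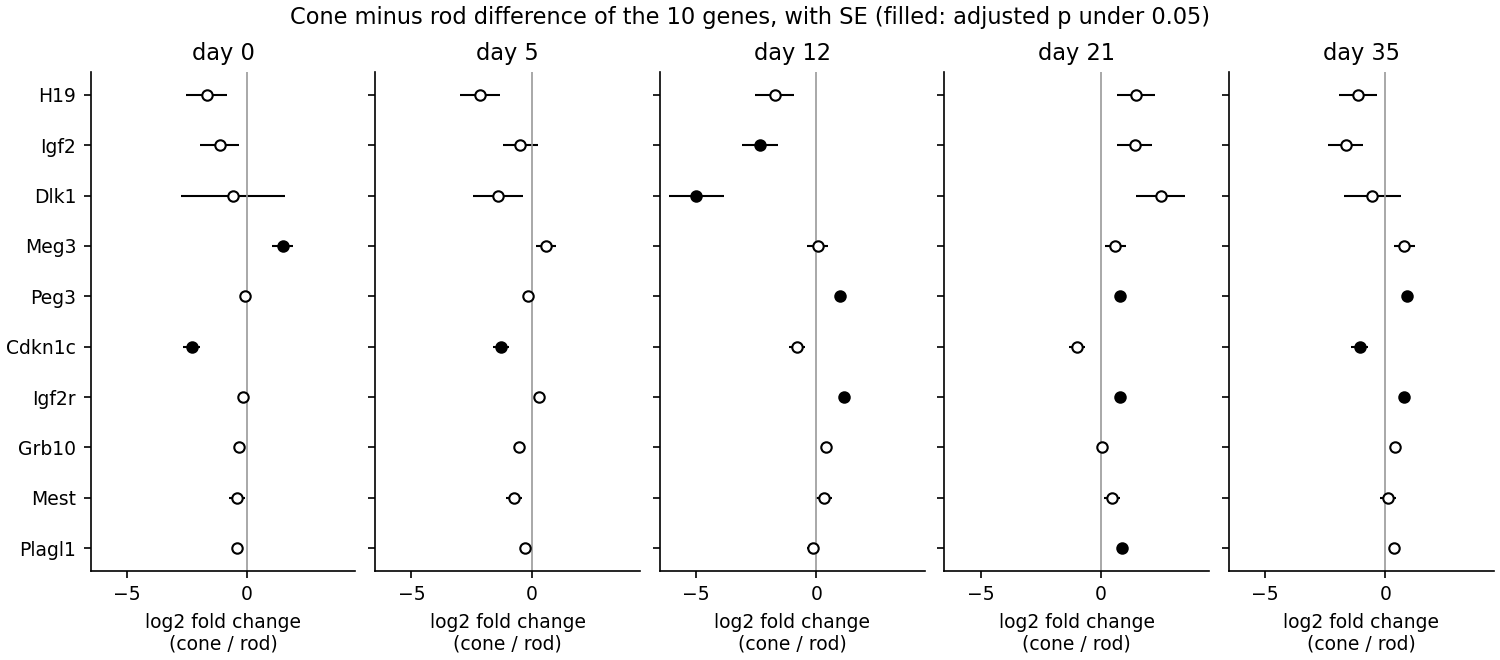
Log2 fold change of cone over rod culture for each of the 10 genes at each day (points) with its SE (bars), from edgeR; filled points had an adjusted p under 0.05. Cdkn1c lies left of 0 at every day, Peg3 and Igf2r lie right of 0 from day 12 on, and H19, Igf2 and Dlk1 have the widest bars.

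H19 encodes a maternally expressed long noncoding RNA, and Igf2, its neighbour, encodes a paternally expressed growth factor of the insulin family. On mouse chromosome 7 (GRCm38, minus strand) H19 lies at 142575529 to 142578143 and Igf2 at 142650766 to 142666816, with 72622 bases between them. Each transcript carries a microRNA: miR-675 is cut from an exon of H19 and miR-483 from Igf2. Their mature sequences are shown because H19 and Igf2 rose most of the 10 genes with time in culture. The mature miRNAs themselves were not measured in these libraries. The sequences are RefSeq entries on GRCm38.p6, written 5′ to 3′ with the seed (bases 2 to 8) in capitals. The 4 seeds differ, and no other miRNA of the RefSeq table used shares one of them.

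miR-675-5p (H19): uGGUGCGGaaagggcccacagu
miR-675-3p (H19): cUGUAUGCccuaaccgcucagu
miR-483-5p (Igf2): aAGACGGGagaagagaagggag
miR-483-3p (Igf2): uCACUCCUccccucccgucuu

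H19 was low at day 0. Its level was 17.4, 7.87 and 11.3 CPM in untreated libraries and 19.4, 21.8 and 6.60 CPM in cone primed ones. In rod primed libraries it was 38.0, 13.9 and 102 CPM, so that only replicate 3 stood well above the other primed cells. In cone culture H19 then read 49.4, 23.4 and 28.5 CPM at day 5, and 141, 33.9 and 107 CPM at day 12. It peaked in cone culture at day 21, with 320.1, 508 and 587 CPM, the group with the highest median of all 11. At day 35 it was 359.6, 69.5 and 460.0 CPM, where replicate 2 fell far below the other two. Rod culture had more H19 than cone culture at day 5, with 106, 146 and 200.1 CPM and no overlap between the groups. Its libraries then spread widely. They read 58.5, 602 and 269.6 CPM at day 12, 60.5, 265 and 191 CPM at day 21, and 401, 1396 and 143 CPM at day 35. The highest and lowest of these rod libraries differed 10.3-fold at day 12 and 9.74-fold at day 35.

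Between primed cells and day 35, H19 rose by 4.21 ± 0.91 (log2, SE; 18.5-fold, adjusted p = 0.000281) in cone culture and by 3.65 ± 0.87 (12.6-fold, adjusted p = 0.000862) in rod culture. Groups did not overlap in either culture, and both calls held on leaving out any 1 of the 6 libraries. The size of the rod rise depended on single libraries: it was 2.40 without rod day 35 replicate 2 and 4.65 without rod primed replicate 3. No cone against rod difference in H19 was called at any day by edgeR fitted to all libraries. At day 5 the difference was -2.16 ± 0.82 (adjusted p = 0.103), but it was called when only the 6 compared libraries were fitted (-2.17, adjusted p = 0.000527) and by voom with quality weights (-2.22, adjusted p = 0.0373). At day 21 it was 1.45 ± 0.79 (adjusted p = 0.289) and at day 35 -1.12 ± 0.79 (adjusted p = 0.410). The change of H19 over all days in rod culture (adjusted p = 0.00532) was no longer called without rod day 35 replicate 2 (adjusted p = 0.0537).

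Igf2 followed a similar course, but its cone and rod groups overlapped at day 5, where those of H19 did not. It measured 10.4, 5.94 and 14.6 CPM in untreated libraries, 7.80, 20.2 and 5.45 CPM after cone priming, and 11.9, 7.56 and 54.9 CPM after rod priming. The 3 day 0 groups overlapped, and rod primed replicate 3 was again the highest. In cone culture Igf2 was 51.9, 40.2 and 40.9 CPM at day 5, 72.9, 40.2 and 48.8 CPM at day 12, 135, 431 and 802 CPM at day 21, and 191, 56.7 and 246 CPM at day 35. In rod culture it was 36.6, 48.8 and 98.1 CPM at day 5, 46.3, 553 and 214 CPM at day 12, 127, 196 and 195 CPM at day 21, and 457, 882 and 218 CPM at day 35. Cone day 35 replicate 2 was thus low in both genes, and rod day 12 replicate 2 and rod day 35 replicate 2 were high in both. From primed cells to day 35, Igf2 rose by 3.85 ± 0.83 (14.4-fold, adjusted p = 0.000287) in cone culture and by 4.37 ± 0.83 (20.6-fold, adjusted p = 7.41e-05) in rod culture, with no overlap between the groups. Both calls for Igf2 held on leaving out any 1 library, but the cone rise was 4.64 without cone primed replicate 2, and the rod rise was 5.75 when rod primed replicate 3 was left out and 3.74 when rod day 35 replicate 2 was.

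At day 12 the Igf2 level of cone culture was below that of rod culture by -2.33 ± 0.76 (5.04-fold, adjusted p = 0.0485), a call, but the groups overlapped. Without rod day 12 replicate 2 the difference was -1.28 (adjusted p = 0.358), and it was -2.36 (adjusted p = 0.208) when only the 6 compared libraries were fitted. At day 35 Igf2 was lower in cone culture by -1.66 ± 0.73, which was not called (adjusted p = 0.153).

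**Figure D2:**
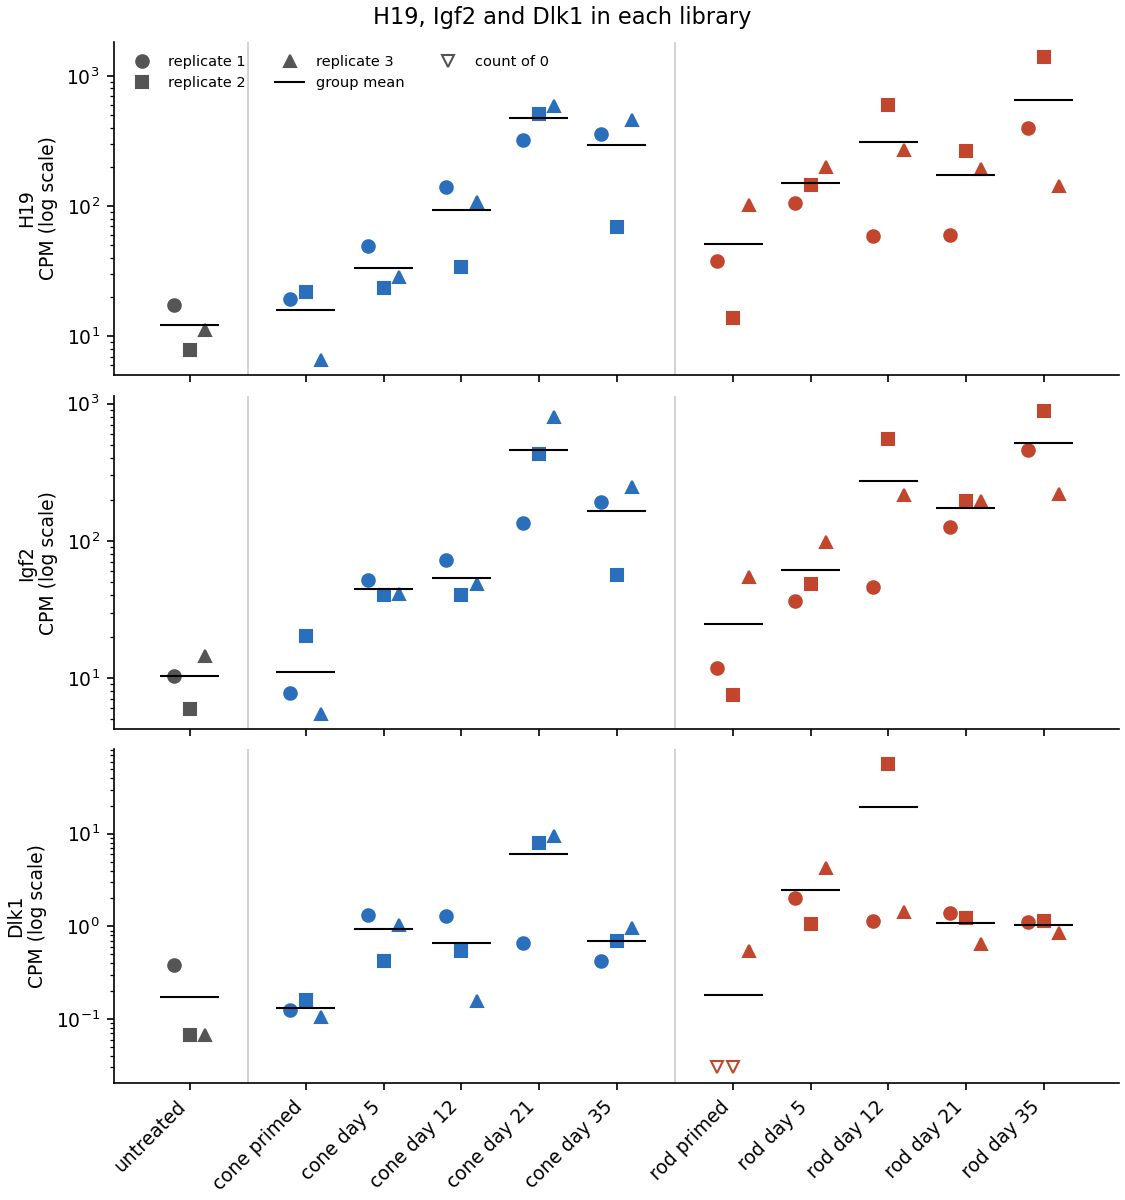
Level of H19, Igf2 and Dlk1 in CPM on a log axis for every library, by group; symbols mark the replicate, horizontal bars the mean of 3 libraries and open triangles a count of 0. H19 and Igf2 range from 5.45 to 102 CPM at day 0 and up to 1396 CPM at day 35, and Dlk1 stays under 10 CPM except in rod day 12 replicate 2 at 56.1 CPM.

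H19 and Igf2 moved together from library to library. H19 spanned 6.60 to 1396 CPM over the 33 libraries, a 211-fold range, and Igf2 spanned 5.45 to 882 CPM, a 162-fold range. The ratio of H19 to Igf2 within a library spanned only 0.477 to 3.18, a 6.67-fold range, with a median of 1.26. At day 5 the ratio parted by culture, at 0.952, 0.582 and 0.698 in cone and 2.88, 3.00 and 2.04 in rod libraries. At every other day the cone and rod ratios overlapped. In 10 of the 11 groups the library with the most H19 was also the one with the most Igf2, and in the same number of groups all 3 libraries had the same order for both genes. Likeness was measured as the root mean square difference of log2 CPM, each gene centred on its own mean over the 33 libraries, among the 12279 tested genes whose log2 CPM averaged 1 or more. By this measure Igf2 was the gene most like H19, at 0.70, and H19 the gene most like Igf2, where the median gene differed from them by 2.01 and 2.05. The next genes for H19 were Ppfibp2 (0.97), Vit (0.97), Fgf23 (0.98) and Eln, which encodes elastin (1.00). The next for Igf2 were Fgf23 (0.77), Lcat (0.81), Vit (0.87) and Flt1, a VEGF receptor (0.91). These points share libraries and depth, and the measure is a description.

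The spread within groups was wide for these genes and for Dlk1. The biological coefficient of variation fitted by edgeR was 0.645 for H19, 0.604 for Igf2 and 0.844 for Dlk1, against a common value of 0.213 over all genes. Meg3 (0.360), Mest (0.283) and Cdkn1c (0.278) also lay above the common value, and Plagl1 (0.194), Igf2r (0.179), Grb10 (0.171) and Peg3 (0.162) lay below it. When the 11 groups were ordered by median, neighbouring groups overlapped in 9 of 10 steps for H19 and in 10 of 10 for Igf2, so most of that order lies within the spread. The exception for H19 was the step from cone primed cells to cone day 5.

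Several lists of cell type genes changed between the same groups as H19 and Igf2, among them the genes of mesenchyme, the connective tissue lineage. The summed level of the 12 listed genes was 8.38 to 37.9 CPM over the day 0 libraries. It reached 3344, 764 and 4160 CPM at cone day 35 and 474, 847 and 339 CPM at rod day 35, and 11 of 11 tested genes of the list rose to day 35 in either culture, where 31.1% of all genes rose in cone and 29.4% in rod culture. All 12 had counts in both day 35 groups, with Col1a1 at a mean of 982 CPM in cone and 160 CPM in rod culture. The list's summed level had the same top library as H19 in 8 of 11 groups. The summed level of 10 smooth muscle and pericyte genes rose from 1.71 to 6.11 CPM at day 0 to 792 to 2134 CPM at day 35, with the same top library as H19 in 3 of 11 groups. Of 11 Muller glia and astrocyte genes, 10 rose to day 35 in cone culture, while 8 rose and 1 fell in rod culture, and their summed level shared its top library with H19 in 6 of 11 groups. Of 7 tested microglia genes, 7 rose in cone culture and 0 were called in rod culture. The summed level of the 9 listed microglia genes was 0.0679 to 5.12 CPM at day 0, 18.9 to 104 CPM at cone day 35 and 1.61 to 3.48 CPM at rod day 35. It shared its top library with H19 in 9 of 11 groups, but its lowest sum at day 0 lay under the level of 3 counts. For the listed genes of endothelium, photoreceptors, cell cycle and other retinal neurons that number was 1, 2, 3 and 5 of 11. Some agreement is expected by chance, as each group holds only 3 libraries. Of 12 tested photoreceptor genes, 7 fell in cone and 9 in rod culture, and 0 rose. Of 15 genes of other retinal neurons, 10 fell and 2 rose in cone culture, and 11 fell and 3 rose in rod culture. Over all genes, 26.5% fell in cone and 26.2% in rod culture. At day 35, 7 of 11 mesenchyme genes, Col1a1 among them (2.62, adjusted p = 0.00156), and 7 of 7 microglia genes were higher in cone than in rod culture, against 7.77% of all genes, whereas neither H19 nor Igf2 was. The part of these cells in the levels of H19 and Igf2 was not tested.

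**Figure D3:**
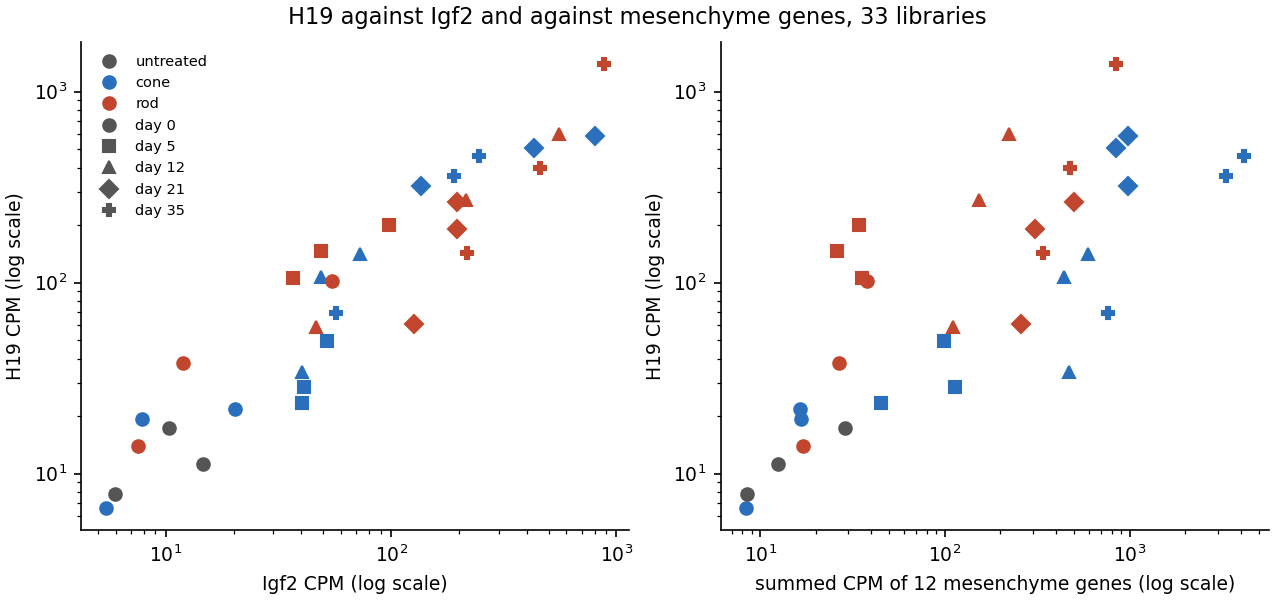
H19 CPM against Igf2 CPM (left) and against the summed CPM of 12 mesenchyme genes (right) for each of 33 libraries, all axes on a log scale; colour marks the culture and symbol the day. The left cloud is narrow over a 211-fold range of H19, and in the right panel rod libraries of days 5 and 12 lie mostly left of cone libraries with as much H19.

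Dlk1 and Meg3 form the second pair of neighbours, 77664 bases apart on the plus strand of chromosome 12 (GRCm38; Dlk1 at 109452823 to 109463336, Meg3 at 109541001 to 109571726). Dlk1 encodes a paternally expressed membrane protein related to the Notch ligands, and Meg3 a maternally expressed long noncoding RNA. Dlk1 was barely detected at day 0, with 0 to 6 counts in any of the 9 libraries. Later levels were 0.155 to 1.39 CPM in cone culture at days 5, 12 and 35 and in rod culture at days 21 and 35. At rod day 5 they were 2.02, 1.07 and 4.31 CPM. At cone day 21 its counts were 5, 93 and 127, and at rod day 12 they were 16, 822 and 20. The day 12 difference in Dlk1, cone minus rod, was -4.98 ± 1.13 (adjusted p = 0.00434), with overlapping groups. This call rested on 1 library. Without rod day 12 replicate 2 the difference was -1.06 (adjusted p = 0.557).

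Rod day 12 replicate 2 differed from its group in more than Dlk1. Its H19 and Igf2 were the highest of the group, its Meg3 was 579 CPM against 231 and 263 CPM, and its Mest was 97.2 CPM against 314 and 234 CPM. Its Cdkn1c was 49.7 CPM against 23.0 and 21.2 CPM. It was the lowest of the group in Peg3, at 297 CPM against 509.9 and 431 CPM, and in Igf2r, at 119 CPM against 246 and 183 CPM. The summed level of 13 photoreceptor genes was 1509 CPM in it, against 87.0 and 179 CPM in the other two libraries. That of 15 genes of other retinal neurons was 703 CPM, against 230.3 and 388 CPM. Whether these levels share a source was not tested.

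Meg3 was lower after rod priming. It was 267, 190.2 and 268 CPM in untreated libraries, 300.2, 193 and 254 CPM after cone priming, and 89.1, 82.6 and 95.9 CPM after rod priming. The 3 rod primed libraries lay below all 6 others. The difference from untreated was -1.44 ± 0.44 (2.71-fold, adjusted p = 0.0340), and cone primed exceeded rod primed cells by 1.48 ± 0.44 (2.79-fold, adjusted p = 0.0373). Neither call was firm: leaving out any 1 of the 6 libraries ended the first (adjusted p up to 0.107), and leaving out 5 of 6, each on its own, ended the second (up to 0.132). By day 5, Meg3 was 524, 469 and 478 CPM in cone and 303, 288 and 388 CPM in rod culture, without overlap, but the difference of 0.59 ± 0.42 was not called (adjusted p = 0.444). Fitted to only those 6 libraries, the Meg3 difference at day 5 was called (0.58, adjusted p = 0.00771). At day 35 it was lower, with 57.4, 195 and 129 CPM in cone and 96.4, 48.1 and 76.2 CPM in rod culture. The cone change from primed cells, -0.97 ± 0.43, missed the threshold (adjusted p = 0.0553).

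The noncoding RNAs downstream of Meg3 in the same imprinted domain were low after rod priming as well. Rian had a mean of 53.6 CPM in untreated and 22.6 CPM in rod primed libraries (-1.24 ± 0.29, adjusted p = 0.00606). Mirg, host of a miRNA cluster, went from 4.75 to 1.47 CPM (-1.68 ± 0.46, adjusted p = 0.0182). Of 43 tested imprinted genes outside the 10, rod priming raised 0 and lowered 5, with a median change of -0.17 against 0 over all genes, of which 6.71% were called higher and 3.56% lower. The other two of the 4 largest were Kcnk9, a potassium channel gene (-3.08 ± 0.82, adjusted p = 0.0170), and Usp29, which lies beside Peg3 (-0.83 ± 0.21, adjusted p = 0.0103).

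Cdkn1c had the largest fitted change on priming of the 10 genes. It encodes a cyclin-dependent kinase inhibitor that holds cells out of the cell cycle, is expressed from the maternal copy and lies on chromosome 7 (GRCm38, 143458339 to 143461050, minus strand). It was 23.8, 21.3 and 19.8 CPM in untreated libraries, 21.6, 29.2 and 25.5 CPM after cone priming, and 77.2, 79.5 and 222 CPM after rod priming. All 3 rod primed libraries exceeded all others of day 0. The rise over untreated cells was 2.55 ± 0.34 (5.85-fold, adjusted p = 1.24e-05), and 1.86 (adjusted p = 0.000126) without rod primed replicate 3. The same libraries had more, not less, of the 11 listed cell cycle genes, with a summed level of 1911 to 2406 CPM against 881 to 1337 CPM in untreated cells, and 8 of 11 were called higher, against 6.71% of all genes.

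Cdkn1c then declined in both cultures and stayed lower in cone culture. At day 5 it was 24.7, 21.1 and 16.2 CPM in cone and 64.0, 42.5 and 43.7 CPM in rod culture. At day 12 it was 17.3, 15.5 and 20.7 against 23.0, 49.7 and 21.2 CPM, and at day 21 it was 18.4, 15.2 and 12.3 against 38.4, 32.9 and 19.6 CPM. At day 35 it was 7.94, 6.87 and 7.83 against 17.8, 16.5 and 13.2 CPM. The cone and rod groups did not overlap at any of the 5 days. By edgeR, the difference was called in primed cells (-2.31 ± 0.34, 4.96-fold, adjusted p = 5.01e-05), at day 5 (-1.28 ± 0.33, 2.42-fold, adjusted p = 0.0128) and at day 35 (-1.07 ± 0.35, 2.09-fold, adjusted p = 0.0470). It was not called at day 12 (-0.81 ± 0.33, adjusted p = 0.129) or day 21 (-0.996 ± 0.34, adjusted p = 0.0642). Much of the day 12 difference came from 1 library: without rod day 12 replicate 2 it was -0.31 (adjusted p = 0.682). The day 35 call ended on leaving out any 1 of its 6 libraries (adjusted p up to 0.137), and the day 5 call on leaving out 3 of 6, each on its own (up to 0.0891). From primed cells to day 35, Cdkn1c fell by 1.76 ± 0.35 (adjusted p = 0.000127) in cone culture and by 3.00 ± 0.35 (8.00-fold, adjusted p = 4.99e-08) in rod culture.

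**Figure D4:**
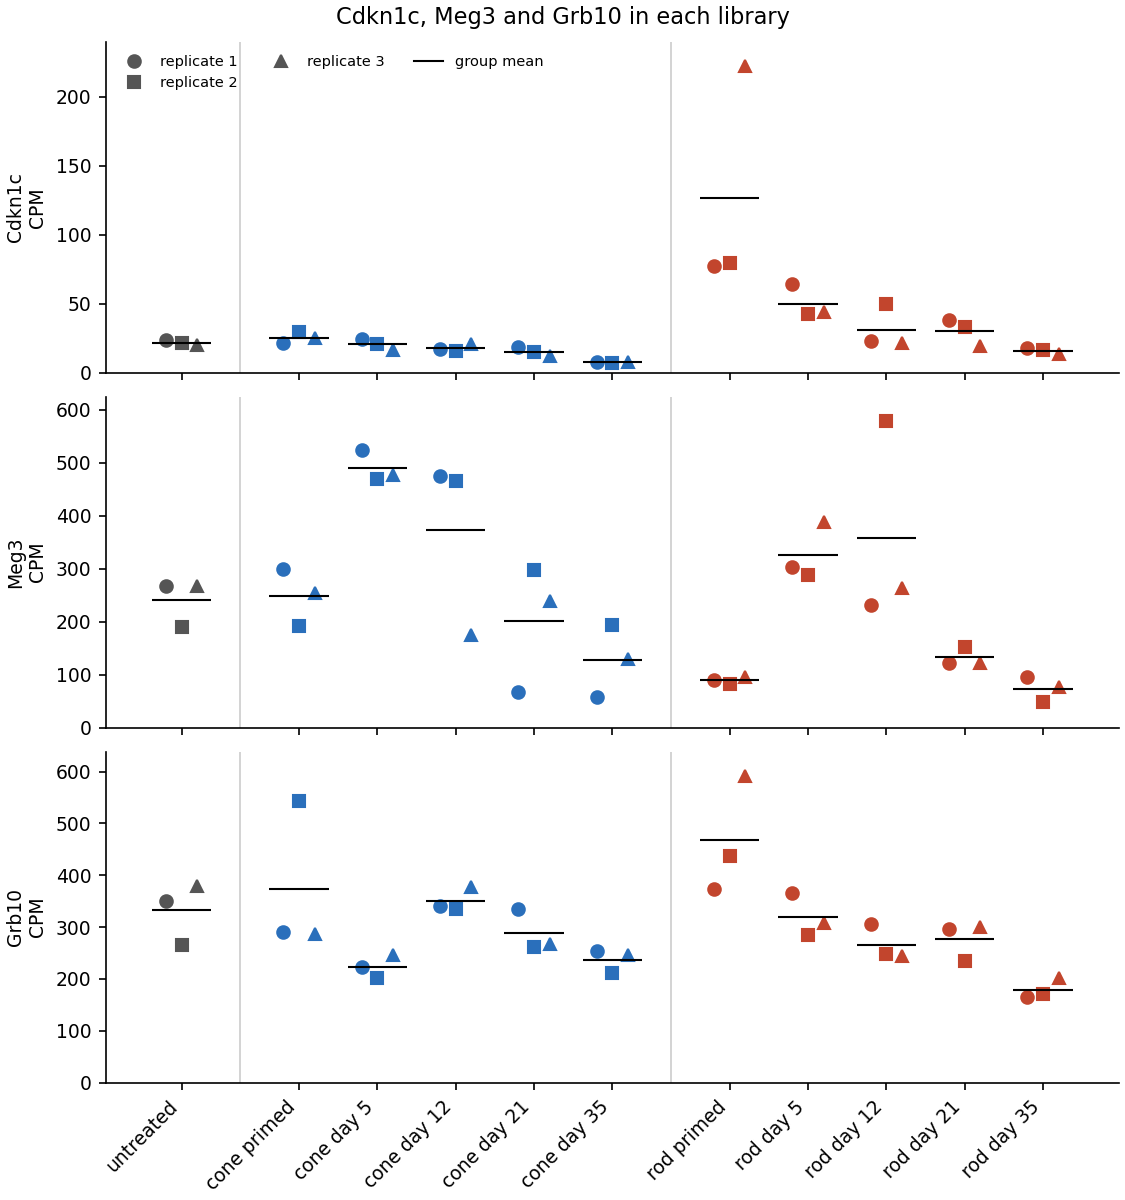
Level of Cdkn1c, Meg3 and Grb10 in CPM for every library, by group; symbols mark the replicate and horizontal bars the mean of 3 libraries. Rod primed cells stand out with Cdkn1c at 77.2 to 222 CPM and Meg3 at 82.6 to 95.9 CPM.

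Grb10, which encodes an adaptor that dampens signalling of the insulin and IGF receptors, is expressed from the maternal copy in most tissues and from the paternal one in neurons. It varied within a narrower range. It was 351, 266 and 379.7 CPM in untreated libraries, 291, 543 and 286 CPM after cone priming and 374, 438 and 591 CPM after rod priming. At day 35 it was 254, 212 and 245 CPM in cone and 164, 172 and 202 CPM in rod culture. Grb10 thus fell by 0.66 ± 0.20 in cone culture (adjusted p = 0.00554) and by 1.38 ± 0.20 in rod culture (2.61-fold, adjusted p = 1.48e-06). The cone call ended without cone primed replicate 2, the library at 543 CPM (-0.28, adjusted p = 0.177). No cone against rod difference in Grb10 was called at any day by edgeR fitted to all libraries, although the groups did not overlap at days 5, 12 and 35. Other settings did call it. Voom with quality weights called Grb10 at day 0 (adjusted p = 0.0339), day 5 (adjusted p = 0.0223) and day 12 (adjusted p = 0.0324), edgeR on only the compared libraries called it at day 5 (adjusted p = 0.0130), and leaving out cone primed replicate 2 gave a call at day 0 (-0.70, adjusted p = 0.0164). The cone values were the lower ones at day 5 (-0.51 ± 0.20, adjusted p = 0.103) and the higher ones at day 35 (0.40 ± 0.20, adjusted p = 0.202).

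Peg3 and Igf2r rose with time in both cultures and ended higher in cone culture. Peg3 encodes a large zinc finger protein and is expressed from the paternal copy. Igf2r encodes a receptor that takes up IGF2 and delivers it for degradation, and is expressed from the maternal copy in most tissues. Peg3 lies on chromosome 7 (GRCm38, 6703892 to 6730431) and Igf2r on chromosome 17 (12682406 to 12769664), both on the minus strand. The 250 bases before their start sites are shown because both genes were called higher in cone than in rod culture at days 12, 21 and 35 and because rod culture contains retinoic acid, whose receptors bind the letters AGGTCA. The windows are RefSeq sequences on GRCm38.p6, 5′ to 3′ along the gene, Peg3 from chr7:6730420-6730669 and Igf2r from chr17:12769707-12769956. These RefSeq start sites differ from the gene positions above. The Peg3 window overlaps the gene span, and the Igf2r window does not reach it. Capitals mark AGGTCA on either strand.

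Peg3: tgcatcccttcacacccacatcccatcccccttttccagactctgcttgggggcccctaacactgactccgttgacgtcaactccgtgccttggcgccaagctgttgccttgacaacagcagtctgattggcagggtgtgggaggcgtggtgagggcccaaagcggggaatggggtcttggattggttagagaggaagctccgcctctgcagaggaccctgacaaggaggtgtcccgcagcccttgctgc
Igf2r: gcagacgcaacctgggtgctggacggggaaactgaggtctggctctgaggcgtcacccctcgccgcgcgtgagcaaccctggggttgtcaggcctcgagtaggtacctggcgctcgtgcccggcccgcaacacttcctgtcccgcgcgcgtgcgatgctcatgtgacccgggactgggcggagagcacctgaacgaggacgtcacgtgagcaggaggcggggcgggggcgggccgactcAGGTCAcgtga

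The Igf2r window held 1 AGGTCA and the Peg3 window held none. The same letters, read on both strands, occurred in 14.0% of 32536 promoter windows of this length, so a match is common and only describes the letters. Of the 10 genes, 8 had entries in the RefSeq table, with 15 start sites in all, and AGGTCA was found in 3 of those windows (Igf2 start site 1, Meg3 start site 2 and Igf2r). The windows differ in CG content, with 27 CG pairs for Igf2r and 8 for Peg3 against a median of 6 over all windows. A match to AANATGGC, a core of the YY1 motif, was found in none of the 15 windows and in 3.93% of all windows. TGCCGC, the ZFP57 motif, occurred in 4 of the 15 (Meg3 start site 1, Mest start sites 2 and 3, which overlap, and Plagl1) and in 8.75% of all windows.

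Peg3 was 188, 194 and 196 CPM in untreated libraries, 195, 211 and 182 CPM after cone priming and 207, 178 and 248 CPM after rod priming. These 3 groups overlapped. At day 5 it was 279.8, 256 and 301 CPM in cone and 287, 315 and 325 CPM in rod culture. The cultures then parted. Peg3 was 730.4, 625 and 1080 CPM in cone and 509.9, 297 and 431 CPM in rod culture at day 12. It was 916, 927 and 765 CPM against 425, 555 and 507 CPM at day 21, and 654, 416 and 587 CPM against 274, 332 and 273 CPM at day 35. All cone libraries exceeded all rod libraries on each of these 3 days. The difference was 0.98 ± 0.19 at day 12 (1.97-fold, adjusted p = 0.000834), 0.81 ± 0.18 at day 21 (1.75-fold, adjusted p = 0.00509) and 0.92 ± 0.19 at day 35 (1.89-fold, adjusted p = 0.00131), and each call held on leaving out any 1 of its 6 libraries. The day 12 call was not made when only the 6 compared libraries were fitted, and limma on the deposited TPM called Peg3 on none of the 3 days. How far cone exceeded rod culture depended on the day (edgeR F test over 5 days, adjusted p = 0.00377). In this test 4 of the 10 genes were called, Dlk1, Peg3, Igf2r and Plagl1, against 9.22% of all genes.

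From primed cells to day 35, Peg3 rose by 1.50 ± 0.19 in cone culture (2.82-fold, adjusted p = 1.44e-07). In rod culture it rose by 0.47 ± 0.19 (1.39-fold, adjusted p = 0.0318), a call that ended on leaving out 5 of the 6 libraries, each on its own (adjusted p up to 0.149). Zim1, the gene next to Peg3 in the same imprinted domain, went the same way. Cone and rod cultures had means of 26.2 and 6.94 CPM at day 12, 30.9 and 5.33 CPM at day 21, and 17.1 and 3.57 CPM at day 35. The differences were 1.92 ± 0.35 (adjusted p = 0.000505), 2.53 ± 0.36 (adjusted p = 2.67e-05) and 2.27 ± 0.36 (adjusted p = 0.000108). Usp29, on the other side of Peg3, was higher in cone culture at day 21 (0.84 ± 0.22, adjusted p = 0.0130) and day 35 (0.98 ± 0.23, adjusted p = 0.00460), but its own level fell over time, from 45.4 CPM after cone priming to 10.9 CPM at cone day 35.

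Igf2r was 107, 94.6 and 99.2 CPM in untreated libraries, 99.8, 93.7 and 85.5 CPM after cone priming and 102, 106 and 111 CPM after rod priming. Replicates lay closer together here than for H19 or Igf2. It was 121, 108 and 117 CPM in cone and 93.8, 104 and 83.0 CPM in rod culture at day 5, and 355, 349 and 516 against 246, 119 and 183 CPM at day 12. At day 21 it was 428, 393 and 383 against 226, 247 and 226 CPM, and at day 35 it was 511, 399 and 434 against 190.2, 379 and 216 CPM. The cone libraries were the higher ones at each of these days without overlap. Calls were made at day 12 (1.16 ± 0.21, 2.23-fold, adjusted p = 0.000444), day 21 (0.78 ± 0.21, 1.72-fold, adjusted p = 0.0151) and day 35 (0.78 ± 0.20, 1.71-fold, adjusted p = 0.0121), not at day 5 (0.30 ± 0.21, adjusted p = 0.415). Leaving out single libraries ended the day 21 call in 2 of 6 cases and the day 35 call in 3 of 6 (adjusted p up to 0.0635 and 0.111). The day 12 call held in all 6 cases, but it was not made when only the compared libraries were fitted. With limma on the deposited TPM, Igf2r was called at none of these days. The rise from primed cells to day 35 was 2.27 ± 0.21 in cone culture (4.82-fold, adjusted p = 9.42e-10) and 1.30 ± 0.21 in rod culture (2.47-fold, adjusted p = 7.35e-06).

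Airn, the noncoding RNA that runs antisense through Igf2r from the paternal copy, had 11 to 314 counts per library. Its mean rose from 1.21 CPM after cone priming to 20.2 CPM at cone day 35 (4.08 ± 0.41, adjusted p = 3.18e-09). The strand setting of the counting is not stated, so where Airn and Igf2r overlap their reads cannot be told apart.

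**Figure D5:**
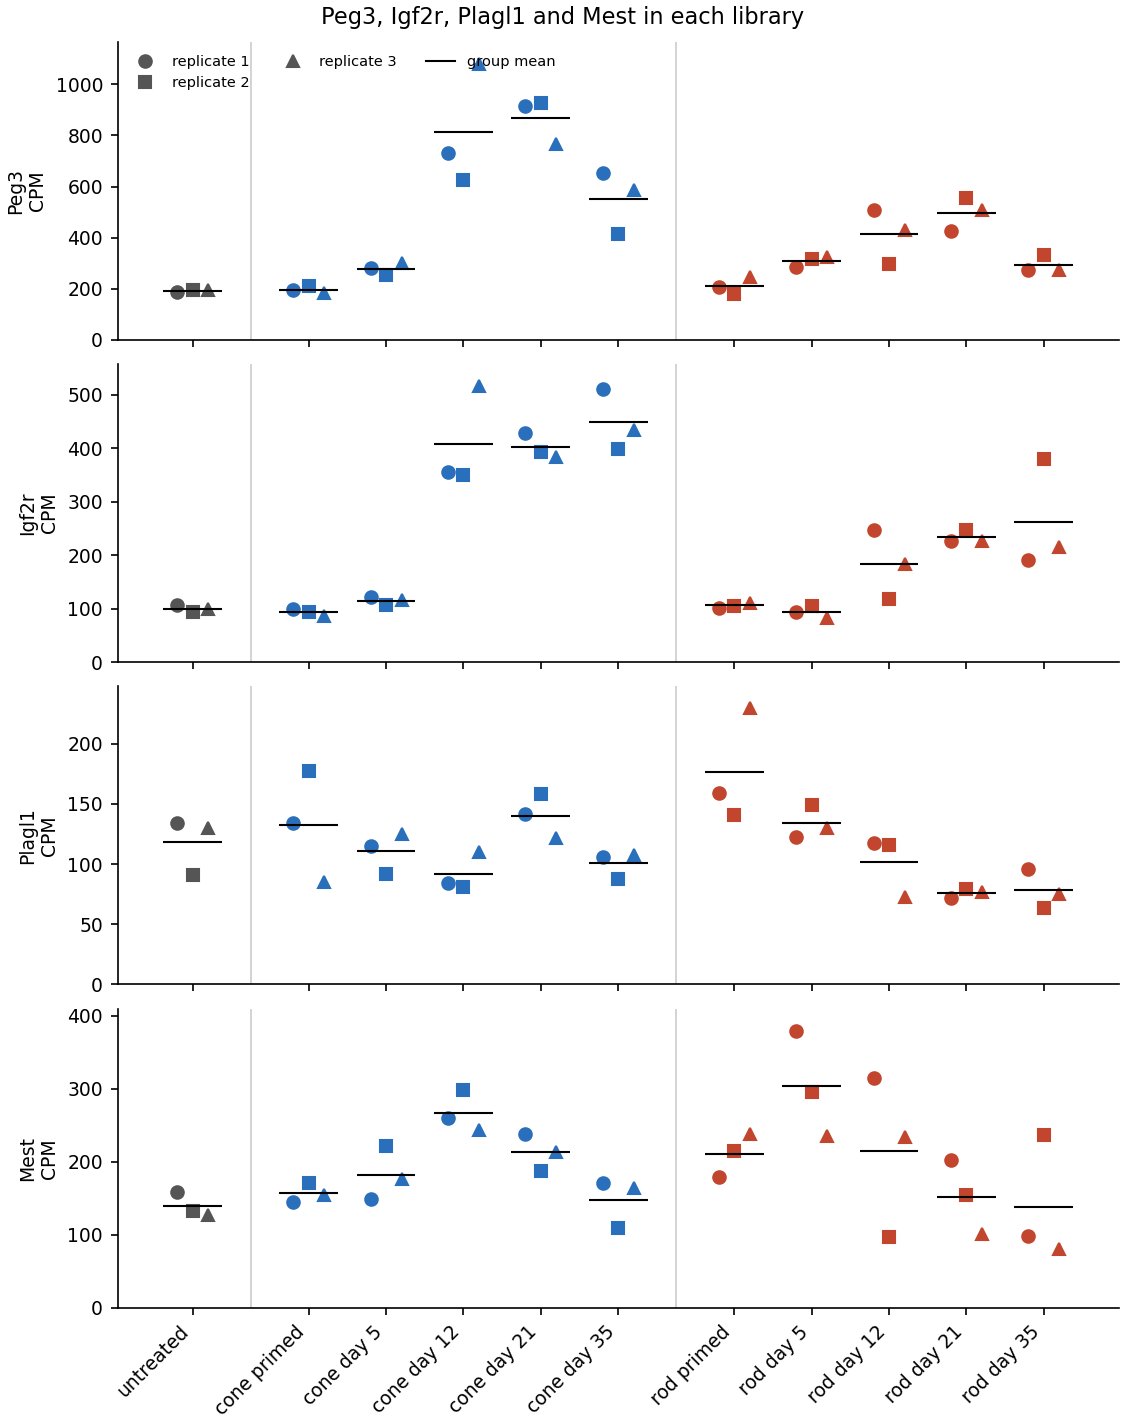
Level of Peg3, Igf2r, Plagl1 and Mest in CPM for every library, by group; symbols mark the replicate and horizontal bars the mean of 3 libraries. Cone libraries of days 12, 21 and 35 lie above the rod libraries of the same day for Peg3 and Igf2r, and for Plagl1 at day 21.

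By edgeR fitted to all libraries, Plagl1 was called between cone and rod culture at day 21 only, and Mest at no day. Plagl1 encodes a zinc finger transcription factor known to act on other imprinted genes, and is expressed from the paternal copy. It was 134, 90.6 and 130.1 CPM in untreated libraries, 134, 177 and 85.0 CPM after cone priming and 159, 141 and 229 CPM after rod priming. At day 21 it was 141, 158 and 121 CPM in cone and 72.0, 79.3 and 76.5 CPM in rod culture, without overlap, a difference of 0.88 ± 0.23 (1.85-fold, adjusted p = 0.0129). That call ended on leaving out 1 of 6 libraries (adjusted p up to 0.0699). No other cone against rod difference in Plagl1 was called. By day 35 it had fallen in rod culture to 95.5, 63.4 and 75.1 CPM (-1.18 ± 0.23, 2.26-fold, adjusted p = 8.51e-05), while in cone culture it was 106, 87.4 and 108 CPM (-0.40 ± 0.22, adjusted p = 0.136).

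Mest, a paternally expressed gene for an enzyme of the hydrolase family, was called in no comparison of 2 groups by edgeR fitted to all libraries. Its highest levels were at rod day 5, with 379, 295 and 236 CPM, and its lowest at rod day 35, with 98.4, 237 and 80.0 CPM. In cone culture it ranged from 109 to 298 CPM. By the same fit its change over days was called in rod culture (adjusted p = 0.0269) and not in cone culture (adjusted p = 0.119). The rod call ended in 4 of 15 leave-one-out fits and with only the compared libraries fitted (adjusted p = 0.128). Calls for Mest thus depended on the setting. With only the compared libraries, edgeR called Mest between rod primed and untreated cells (adjusted p = 0.00963), between cone and rod at day 0 (adjusted p = 0.0462) and day 5 (adjusted p = 0.0177), and over days in cone culture (adjusted p = 0.00205). Voom with quality weights called it between cone and rod at day 5 (adjusted p = 0.0471) and day 21 (adjusted p = 0.0221), from primed cells to day 35 in rod culture (adjusted p = 0.0114) and over days in cone culture (adjusted p = 0.0417), and limma on the deposited TPM also called the last (adjusted p = 0.0317). Without rod day 35 replicate 2, the fall of Mest in rod culture was called as well (-1.25, adjusted p = 0.00223). Mest overlaps the gene Copg2 on the opposite strand, which had 311 to 799 counts per library.

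Group means were also compared per kilobase of exon, with the exons of all transcripts of a gene joined. On this scale the 10 genes changed order between the start and the end of culture. In untreated cells Grb10, at 36.5 CPM per kilobase, and Mest, at 35.3, were the highest, with H19 at 4.95 and Igf2 at 1.80. At day 35 the group mean of H19 was the highest of the 10 in either culture, at 120 CPM per kilobase in cone and 263 in rod culture. Without rod day 35 replicate 2 the rod value of H19 was 111, still the highest of the 10. With all libraries Igf2 was at 28.7 and 90.7 (59.0 in rod culture without that library), and Dlk1 was the lowest of the 10 in both. The deposited TPM, also scaled by length, gave another order. At cone day 35 H19 was at 17.4, 2.39 and 6.26 TPM, below Igf2r at 38.6, 17.5 and 25.3. At rod day 35 H19 was at 3.85, 12.4 and 12.7 TPM and Igf2r at 10.5, 38.5 and 1.50.

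More genes of the wider insulin-like growth factor system rose than fell with time. From primed cells to day 35, 12 of 18 tested genes rose and 5 fell in cone culture (median 1.83, against 0.03 over all genes, of which 31.1% rose and 26.5% fell), and 11 rose and 4 fell in rod culture (median 1.76, against 0.04 over all genes, of which 29.4% rose and 26.2% fell). The largest changes in cone culture were in genes of IGF binding proteins and of a protease that cuts them. Igfbp7 went from a mean of 0.481 to 129 CPM (7.99 ± 0.53), Igfbp3 from 3.17 to 587 CPM (7.51 ± 0.73), Pappa from 0.501 to 70.7 CPM (7.19 ± 0.48) and Igfbp2 from 16.7 to 764 CPM (5.52 ± 0.35). At day 35, 6 of 18 were higher and 1 lower in cone than in rod culture, where 7.77% of all genes were higher and 4.51% lower. The largest differences were in Igfbp3 (2.31 ± 0.55, adjusted p = 0.00503), Igf2bp3, which encodes an RNA-binding protein that binds Igf2 transcripts (2.25 ± 0.27, adjusted p = 2.19e-06), Igf1 (1.89 ± 0.53, adjusted p = 0.0180) and Pappa (1.79 ± 0.32, adjusted p = 0.000298). The mesenchyme, smooth muscle and Muller glia genes described above rose between the same groups in both cultures and the microglia genes in cone culture, and the mesenchyme and microglia genes were also higher in cone than in rod culture at day 35. Their part in these changes was not tested.

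Most genes of the list for imprint maintenance declined. The list also holds de novo methyltransferase genes and the methylcytosine dioxygenase (Tet) genes, so its fall does not measure the upkeep of imprints. Of 14 tested, 0 rose and 13 fell by day 35 in cone culture (median -0.69, where 26.5% of all genes fell), and 1 rose and 9 fell in rod culture (median -0.54, where 26.2% of all genes fell). In cone culture the largest falls were in Dnmt3b, a de novo DNA methyltransferase gene (-1.91 ± 0.28, adjusted p = 1.94e-06), Uhrf1, which guides the maintenance methyltransferase to replicating DNA (-1.69 ± 0.27, adjusted p = 7.72e-06), Tet3, a methylcytosine dioxygenase gene (-1.35 ± 0.14, adjusted p = 7.04e-09), and Zfp57, whose protein binds methylated imprinting control regions (-1.004 ± 0.24, adjusted p = 0.000718). The cell cycle genes, with which Uhrf1 is usually expressed, had a summed level of 931 to 1602 CPM after cone priming and 272 to 643 CPM at cone day 35, and its part in the fall was not tested. DNA methylation was not measured.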

How the data were processed

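RNA from 33 libraries was analysed, 3 in each of 11 groups. Raw read counts of 47729 genes were deposited by the authors for each library. Tables of TPM, FPKM and coverage were also deposited by the authors, and of these the deposited TPM served only as an alternative. The submitters' processing notes name HISAT2, StringTie, HTSeq and GRCm38, without versions or roles, and the strand setting is not given in the sources used here. Of counted reads, 26.9 to 34.9% were assigned to genes. Symbols came from the deposited abundance tables by gene ID. Positions of the 10 genes were the same in those tables and in GENCODE M21.

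Counts were filtered with filterByExpr (by group, minimum count 10), leaving 18150 genes, scaled by TMM, and fitted in 1 quasi-likelihood model of 11 group means with 22 residual degrees of freedom (edgeR 4.0.16, limma 3.58.1, R 4.3.3). Adjusted p-values are Benjamini-Hochberg values over all genes tested, called under 0.05. The fit was also run on simulated counts drawn with its own fitted spread, which cannot show how it handles single outlying libraries. The SE is the absolute log2 fold change divided by the square root of F. Alternatives were no filter, DESeq2 1.42.0, RLE scaling, keeping genes of mean CPM 1 or more, a fit of the compared libraries alone, a replicate block, voom with sample weights, limma on log2(TPM + 1), and leaving out each library. Fitting without rod primed replicate 3 and rod day 12 replicate 2 together was added after seeing the data. All 10 genes are named. From the lists of 56 other imprinted, 20 insulin-like growth factor and 16 imprint maintenance genes, at most the 4 called genes with the largest change are named per comparison described, and for H19 and Igf2 the 5 most like genes. Members and lists were chosen with earlier results of these data known.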

Additional observations from a re-analysis of the deposited data

Results flagged for a closer look

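For 4 of the 10 genes the cone minus rod difference was not the same at all days by the edgeR F test of the difference itself, over days 0, 5, 12, 21 and 35. For Peg3 the adjusted p was 0.00377, and it stayed under 0.05 on leaving out any 1 of the 30 cone and rod libraries. The difference was -0.11 at day 0 and 0.98 at day 12. For Igf2r the adjusted p was 0.0200, with a difference of -0.19 at day 0 and 1.16 at day 12, and the call ended on leaving out cone primed replicate 3 (0.0567). For Dlk1 the adjusted p was 0.0227, with a difference of -4.98 at day 12 and 2.49 at day 21. Without rod day 12 replicate 2, which had 822 counts of Dlk1 against 16 and 20 in its group, the adjusted p was 0.0575. For Plagl1 the adjusted p was 0.0292, with a difference of 0.88 at day 21 and -0.42 at day 0, and the call held in 19 of the 30 fits without a library.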

How the results depend on the processing

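Counts of called genes among the 10 depended on the setting as follows. With only the compared libraries fitted, 4 were called between rod primed and untreated cells, 5 between cone and rod at day 5 and 0 at day 12. Voom with quality weights called 4 at day 5 and 6 at day 21. On the deposited TPM with limma, 0 were called for rod primed against untreated cells, 0 for cone against rod at days 0, 5, 12, 21 and 35, and 0 for the change of that difference with day. On TPM, 1 was called from primed cells to day 35 in cone culture, 2 in rod culture, and 5 for any change over days in rod culture. Directions reversed on TPM for Igf2r at day 21 (-0.88) and for Plagl1 from primed cells to day 35 in rod culture (0.14). The TPM differ from the counts in ways not explained in the sources used here.

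Without rod primed replicate 3 and rod day 12 replicate 2 together, 1 was called for rod primed against untreated cells, 1 at day 0, 2 at day 12 and 2 for the change with day. Leaving out 1 library at a time gave 1 to 1 called genes for rod primed against untreated cells, 1 to 3 at day 0, 0 to 1 at day 5, 2 to 4 at day 12, 1 to 2 at day 35 and 2 to 5 for the change with day. The cause was not tested, beyond the fewer samples of such fits. Other scaling, filters and DESeq2 kept each count within 1.5 times.

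Replicate numbers were not taken to pair the samples: in no comparison did all 3 same-numbered pairs deviate together with a correlation over 0.1. This rule cannot exclude a shared preparation. Replicate 1 had the fewest gene counts in most groups, though not at rod days 12 and 21. The correlations were 0.0755 to 0.204 for rod primed against untreated cells and 0.0392 to 0.570 for cone against rod at day 12. For cone against rod at day 35 they were -0.276 to -0.113. With the number as a replicate block, 3 genes were called at day 12, where Igf2 was not called (adjusted p = 0.0690), 2 at day 35, where Cdkn1c was not called (0.0578), and 3 for the change with day.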
